A study of Mus musculus with 8 samples.

Results

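The comparison described here is knock-in (KI) against wild-type (WT) mouse ventricle at 1 week of age, which used 4 of the 8 arrays of the series, 2 for each genotype. The arrays were chosen by the titles of their columns in the deposited value table, which named 2 columns for KI homozygotes and 2 for WT mice at 1 week. KI mice carried the TNNT2ΔK210 allele on both chromosomes, a deletion of lysine 210 in cardiac troponin T made in the mouse gene Tnnt2, and the series title presents them as a neonatal model of dilated cardiomyopathy. WT mice of the same age were the controls, and the labels name no treatment for either group. The labels say that 3 ventricular samples of a group were combined, but leave unsaid whether replicate arrays held different pools, so errors and p-values describe how the arrays varied, which may be a technical spread. The other 4 arrays, 2 for each genotype at birth, were used for the spread and as a second age. The labels give no strain, sex or litter. The sample labels say ventricle, the design text left ventricle, and either tissue holds vessels, connective tissue and blood beside heart muscle. In such tissue, fewer cells of a type and less RNA per cell cannot be told apart.

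Troponin T anchors the troponin complex to tropomyosin on the thin filament and passes on the binding of calcium that starts contraction. In mice, the first week after birth is when the ventricle turns from the fetal slow myosin heavy chain, Myh7, to the adult fast form, Myh6, and when most heart muscle cells leave the cell cycle. Stressed or failing rodent ventricle is known to express Myh7 and natriuretic peptide genes again.

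The 4 arrays at 1 week are called A to D. By the value table, A and D were WT replicates 1 and 2, and B and C were KI replicates 1 and 2. The deposited scanner files held the same signals under other sample names for 3 of these 4 columns: by the scanner files, A and B were WT and C and D were KI. Arrays A and C thus had the same genotype in both records, whereas B and D exchanged theirs. The value-table samples are used throughout unless the text says otherwise, and the scanner-file samples and the difference of array C minus array A are given beside them. The array 75th percentile of signal was 511 on A, 343 on D, 523 on B and 468 on C, and 61.9% to 63.7% of probes were well above background. Median absolute log2 differences between arrays were smallest for A and B (0.118) and largest for C and D (0.268), and the first principal component of the 4 arrays (50.9% of the variance) set D apart. Array A also had the lowest atrial signal: the summed linear level of 14 atrial markers was 108 on A against 525 on D, 463 on B and 527 on C, in multiples of the array 75th percentile. The markers of ventricular heart muscle had a summed level of 2519 to 2622 on the 4 arrays. This sum stayed close while the atrial sum differed, so it does not show how much atrial tissue an array held.

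Tnnt2 itself was among the brightest transcripts. Its log2 level, relative to the array 75th percentile as for all levels below, was 8.33 and 7.77 in WT (A, D) and 8.21 and 8.20 in KI (B, C). The groups overlapped, and KI minus WT was +0.15 ± 0.19 (limma SE, n = 2 arrays a group; adjusted p = 0.818). The probe reads the amount of transcript and not the missing codon, so it does not check the genotype of an array.

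Of 15744 genes tested, 8 (0.0508%) were called between KI and WT at 1 week at an adjusted p below the threshold of 0.05 in limma: 5 higher in KI (0.0318% of the genes tested) and 3 lower (0.0191%). When the 4 arrays at 1 week were fitted without the birth arrays, limma called 0 genes (912 at an unadjusted p under 0.05), and the adjusted p of Myh7 was 0.166. Myh7, the slow myosin of the fetal ventricle, was the brightest of them. The other 7 were Casq1, a calcium store protein, the protease Ctse, the chitinase-like Chil1 and the adhesion molecule Cntn2, which were higher, and the endosomal GTPase Rab7b, the potassium channel Kcnc2 and the liver enzyme Bhmt, which were lower. Of the 8, 4 were well above background on all 4 arrays (Myh7, Casq1, Cntn2 and Rab7b). Over all genes, 1113 were at an unadjusted p under 0.05, where a share of 0.05 would be 787, and the median difference was +0.03. Both KI arrays lay above both WT arrays for 19.8% of genes and below them for 18.0%, which is the background for every count of non-overlapping genes below.

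Myh7, the β-myosin heavy chain, was measured at a log2 level of 4.61 and 4.54 in WT (A, D) and 7.12 and 7.28 in KI (B, C). Both KI arrays lay more than 2 log2 units above both WT arrays, and the arrays of a genotype were close together. Myh7 rose by 2.62 ± 0.12 in KI, a 6.17-fold difference (limma adjusted p = 0.00195, n = 2 arrays a group; 95% interval 2.34 to 2.91). At birth the same probe stood at 9.49 and 9.44 in WT and at 9.45 and 9.52 in KI, with no difference between genotypes beyond the SE (+0.02 ± 0.12). The level at 1 week minus that at birth was -4.89 ± 0.12 in WT and -2.29 ± 0.12 in KI.

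The difference between the ages was itself tested. Of the 15744 genes, 1 (0.00635%) had a genotype difference at 1 week that was unlike that at birth, and this was Myh7 (age by genotype +2.60 ± 0.17, limma adjusted p = 0.0222). Without KI replicate 2 (array C) this adjusted p was 0.124, without either WT birth array 0.134 or 0.133, and without KI birth replicate 1 or 2 it was 0.0995 or 0.255, while the estimate stayed between +2.52 and +2.64. On arrays C and A alone, the pair with the same genotype in both records, Myh7 differed by +2.67 at 1 week. With this pair the age by genotype difference was +2.64 and did not pass. With the scanner-file samples each genotype held 1 array of high and 1 of low Myh7, and KI minus WT was +0.04 (adjusted p = 0.996).

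**Figure D1:**
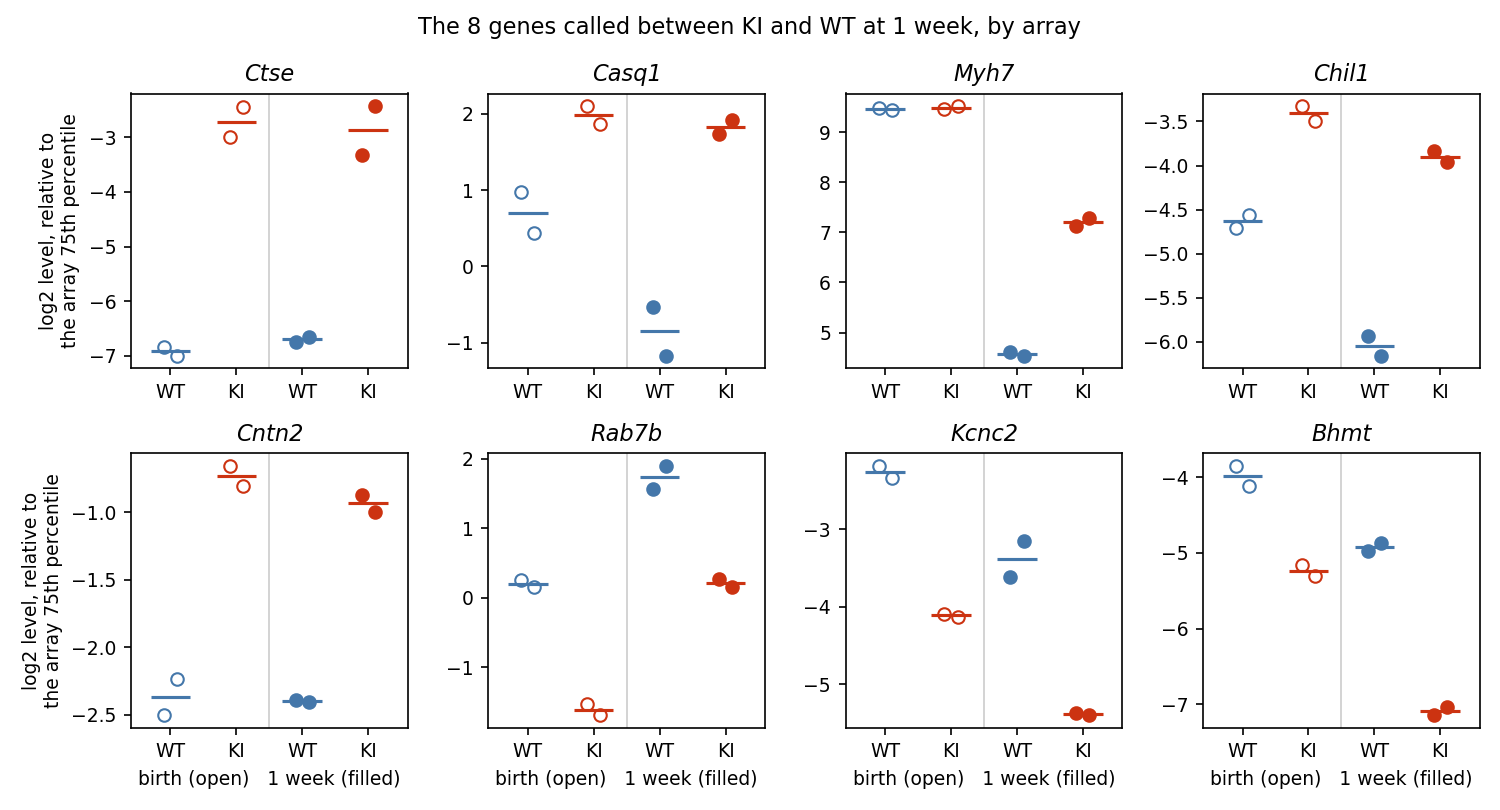
Log2 level, relative to the array 75th percentile, of each of the 8 called genes on every array; open points are birth, filled points 1 week, blue WT, red KI, and the bar is the mean of 2 arrays. Myh7 is near 9.5 on all birth arrays and parts the genotypes only at 1 week, whereas the other 7 part them at both ages; Ctse and Chil1 in WT, Kcnc2 in KI and Bhmt on all 4 arrays at 1 week are not well above background.

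The promoter of Myh7 is shown because it is the brightest of the called genes and the one whose difference was unlike that at birth. The 250 bases before its first listed start were taken from RefSeq (GRCm38.p6, chr14:54994627-54994876, minus strand, 5′ to 3′); the table lists 2 starts. Capitals mark an MCAT element (CATTCC, here on the other strand as GGAATG, from base -201), the site named for muscle promoters bound by TEAD factors, and a CCAAT box (CCAAT, from base -107).
Myh7 promoter: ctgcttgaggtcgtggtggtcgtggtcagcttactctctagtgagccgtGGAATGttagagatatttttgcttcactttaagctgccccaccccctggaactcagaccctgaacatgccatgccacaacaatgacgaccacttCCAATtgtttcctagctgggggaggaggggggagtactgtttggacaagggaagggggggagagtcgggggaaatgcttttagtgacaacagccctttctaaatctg
Over all 32851 promoter windows of this length in the table, 12.6% held an MCAT element and 33.8% a CCAAT box on either strand. These are matches of letters and no measure of binding.

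Casq1, calsequestrin of fast skeletal muscle, binds calcium in the sarcoplasmic reticulum. Its level was -0.53 and -1.17 in WT and 1.74 and 1.92 in KI, so the groups did not overlap. Casq1 rose by 2.68 ± 0.26 in KI (limma adjusted p = 0.0414). At birth it stood at +1.27 for KI minus WT, and 1 week minus birth was -1.55 ± 0.26 in WT and -0.15 ± 0.26 in KI; the age by genotype difference of +1.40 did not pass (adjusted p = 0.851). Casq2, the cardiac form, was at 6.98 and 6.82 in WT and 7.09 and 7.14 in KI, a difference of +0.21 ± 0.31 (adjusted p = 0.838).

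Ctse and Chil1 were above background only in KI. Ctse, cathepsin E, was at -6.74 and -6.65 in WT, not well above background, and at -3.32 and -2.43 in KI, which made it at least 3.70-fold higher (limma adjusted p = 0.0193 for the measured difference of +3.82). Chil1 was at -5.94 and -6.16 in WT, not well above background, and at -3.83 and -3.96 in KI, at least 1.82-fold higher (adjusted p = 0.00747; measured difference +2.15). Here and for every such bound, the dim group was set to the lowest signal among probes well above background on each array. Cntn2, contactin 2, which marks cells of the conduction system in the adult heart, was at -2.39 and -2.41 in WT and -0.87 and -1.0 in KI, and rose by 1.47 ± 0.14 (adjusted p = 0.0414); a second, dimmer probe of this gene gave +0.34. Cntn2 kept its call in 6 of 23 alternatives.

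Among the genes lower in KI, Rab7b, a small GTPase of endosomes and lysosomes, was at 1.56 and 1.90 in WT and 0.27 and 0.16 in KI. It fell by 1.52 ± 0.15 (limma adjusted p = 0.0480), a call kept in 5 of 23 alternatives. Kcnc2, a voltage-gated potassium channel, was at -3.61 and -3.15 in WT and at -5.38 and -5.40 in KI, where it was not well above background, so it was at least 2.98-fold lower (adjusted p = 0.0245; measured difference -2.01). Bhmt, which makes methionine from betaine and homocysteine in liver, was not well above background on any of the 4 arrays (-4.98 and -4.87 in WT, -7.15 and -7.04 in KI), so no fold is given.

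For all 8 called genes KI minus WT had the same sign at birth, on arrays whose genotype was the same in both records. The birth difference of Myh7 lay within its SE, however, so its sign carries no weight. The birth difference was +4.20 for Ctse, +1.64 for Cntn2, +1.22 for Chil1, -1.82 for Rab7b, -1.86 for Kcnc2 and -1.26 for Bhmt. On array C minus array A the 8 differences kept the sign and lay within 0.5 log2 units of those of the full comparison. Arrays A and C were among those that gave the calls, and the groups of all 8 genes did not overlap. The sign on this pair was thus fixed in advance and is no separate check. With the scanner-file samples, where each genotype held 1 array of each value-table group, 6 of them changed sign and none passed. The values are in the plot of differences by age and record. The comparison with the scanner-file samples called 1 of 15757 genes (0.00635%), a gene not among the 8.

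**Figure D2:**
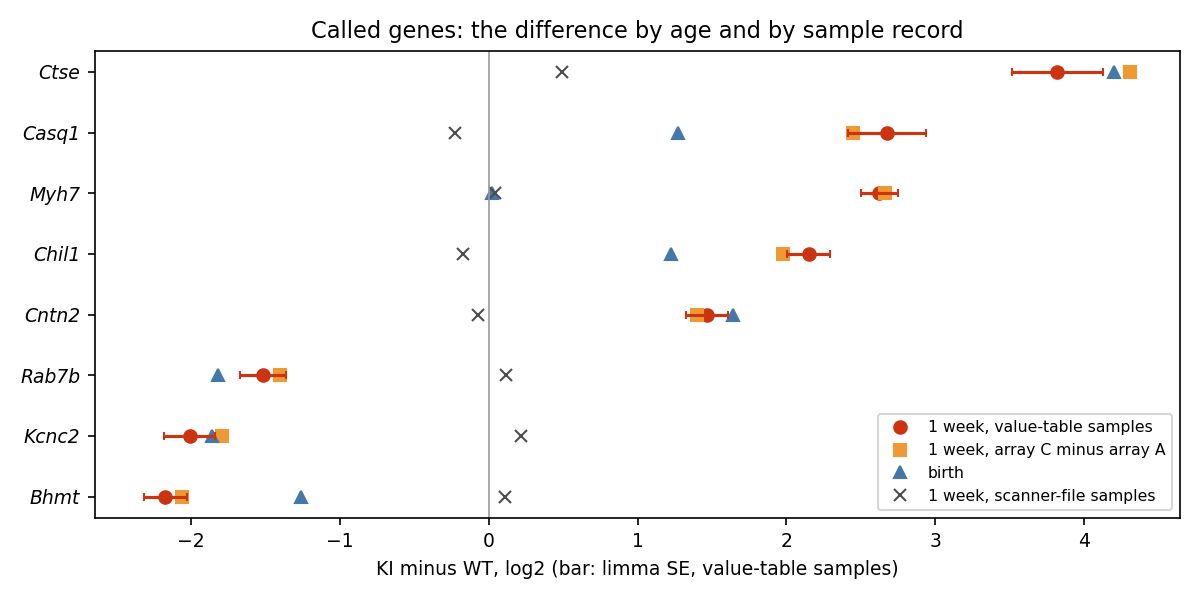
KI minus WT (log2) of the 8 called genes at 1 week with the value-table samples (red circles, bar 1 limma SE), on array C minus array A (orange squares), at birth (blue triangles) and at 1 week with the scanner-file samples (crosses). Red, orange and blue points lie on the same side of 0, Myh7 at birth being at +0.02, while the crosses lie between -0.23 and +0.49.

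Of the 8 called genes, 5 lie on chromosome 1, the chromosome of Tnnt2, which held 5.66% of the genes tested. Ctse, Rab7b, Cntn2 and Chil1 were 57, 56, 41 and 22 tested genes from Tnnt2 on one side of it, and Casq1 was 196 away on the other. Within 60 tested genes of Tnnt2 on either side, 4 of 120 genes (3.33%) were called, against 1 of 770 on the rest of the chromosome (0.130%) and 3 of 14853 elsewhere (0.0202%). The groups did not overlap for 50.8% of these neighbours, 27 higher and 34 lower in KI, against 38.4% and 37.7%. The window was chosen with earlier results of these data known, so these shares are a description.

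**Figure D3:**
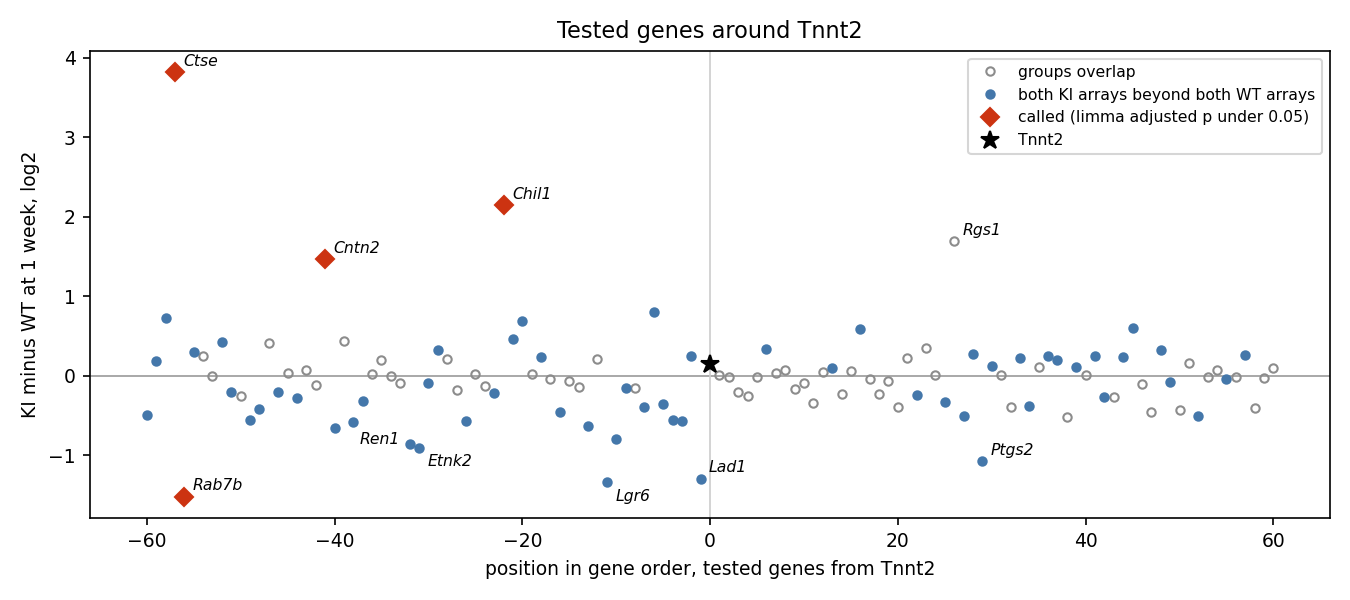
KI minus WT at 1 week (log2) for the 120 tested genes nearest to Tnnt2, by position in gene order (0 is Tnnt2, star). Red diamonds are the 4 called genes, blue points the other genes whose groups do not overlap and open points the rest; names are given to the 10 largest differences.

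Uncalled neighbours had values on both sides of 0. Lad1, an epithelial anchoring-filament gene next to Tnnt2 in gene order, was at 1.91 and 1.58 in WT and 0.61 and 0.30 in KI (-1.29 ± 0.36, adjusted p = 0.562). The stem cell receptor Lgr6 was at -2.70 and -3.22 in WT and -4.41 and -4.19 in KI (-1.34 ± 0.20, adjusted p = 0.174). Ren1, the renin gene, was at -4.01 and -3.82 in WT and -4.66 and -4.89 in KI (-0.86 ± 0.23), but at birth its difference was +1.58; the change between the ages did not pass (age by genotype -2.44, adjusted p = 0.337). Rgs1, a regulator of G-protein signalling, stood at +1.69 through array B alone (-3.33, against -6.96 on C and -6.97 and -6.70 in WT).

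The fetal and stress genes, which the heart expresses before birth and again under load, were measured at 39 of 40 members. Only Myh7 of these 39 was called; 28 were positive, 14 had both KI arrays above both WT arrays (35.9%) and 7 below (17.9%), with a median of +0.25. Nppa, atrial natriuretic peptide, was at 5.60 and 7.57 in WT and 8.0 and 8.28 in KI. The groups did not overlap, but the WT arrays were nearly 2 log2 units apart, and the difference was +1.56 ± 0.55 (limma adjusted p = 0.686). The low value was that of array A, which also held the least of the other atrial transcripts; Myl7 was at 2.08 on A against 6.91 on D, 5.90 on B and 6.10 on C, and Sln at -1.06 against 5.03, 4.04 and 3.78. The part of atrial tissue in the Nppa value was not tested.

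Nppb, B-type natriuretic peptide, was at 6.07 and 5.58 in WT and 6.32 and 6.41 in KI (+0.53 ± 0.21, adjusted p = 0.690). Ankrd1, a titin-bound protein that responds to stretch, was at 6.24 and 5.53 against 6.79 and 6.58 (+0.80 ± 0.25, adjusted p = 0.637). Both had non-overlapping groups, whereas skeletal α-actin, Acta1, overlapped (3.01 and 2.14 in WT, 3.05 and 2.81 in KI). Without array D the list median was +0.13, and without array A +0.31.

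Genes of the sarcomere and Z-disc, the contractile lattice, were measured at 61 of 62 members. Myh7 alone was called; 45 were positive, 20 lay above (32.8%) and 8 below (13.1%), and the median was +0.20. That median rested on array D: without it the value was -0.01, and array C minus array A gave -0.06. Myh6, the adult fast myosin, was at 8.90 and 9.10 in WT and 8.73 and 8.62 in KI, non-overlapping and lower by 0.32 on the log2 scale in the direction opposite to Myh7, without passing (KI minus WT -0.32 ± 0.13, adjusted p = 0.690). Of the troponins, Tnnt1, the slow skeletal troponin T, was at 4.26 and 4.39 in WT and 4.78 and 4.87 in KI (+0.49 ± 0.12, adjusted p = 0.507), with a like difference at birth (+0.57). Tnni1, the fetal troponin I, was at 6.84 and 6.99 against 7.11 and 7.21 (+0.25 ± 0.12), and Tnni3, its adult successor, overlapped (+0.01 ± 0.13). A second, dimmer Tnni1 probe, above background on all 4 arrays, gave +0.93. Myoz1, a Z-disc binder of calcineurin that is typical of fast skeletal muscle, was at -2.28 and -2.43 in WT and -1.54 and -1.44 in KI (+0.87 ± 0.14, adjusted p = 0.239).

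Among 42 calcium handling genes, 15 lay above (35.7%) and 4 below (9.52%), and the median was +0.16. The group had no called member but Casq1. Atp2a2, the pump that refills the sarcoplasmic reticulum, and Ryr2, its release channel, differed by -0.09 ± 0.16 and -0.15 ± 0.11; a second Ryr2 probe, above background on all 4 arrays, gave +0.48. The calcium list, too, rested on D, since its median was +0.01 without that array.

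Of 43 ion channel genes, 8 lay above and 12 below, with a median of -0.04 (+0.01 without array A), and Kcnc2 was the called one. Kcnd2, which carries the transient outward current, was at 0.11 and -0.68 in WT and -1.19 and -1.28 in KI, with a like difference at birth (-0.95 ± 0.24 at 1 week, adjusted p = 0.515; -0.81 at birth). Cacna1g, a T-type calcium channel, was at 1.47 and 1.39 against 2.33 and 1.97 (+0.71 ± 0.16, adjusted p = 0.446). Hcn4, the pacemaker channel, was at -2.72 and -2.34 against -1.77 and -2.15 (+0.57 ± 0.23, adjusted p = 0.690). Kcnip2, the partner of Kcnd2, overlapped, at 0.49 and -1.35 in WT and -0.19 and -1.18 in KI.

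Transcription factors that pattern the ventricle included 3 Iroquois factors whose groups did not overlap. Irx3, an Iroquois factor of the ventricular conduction system, was at 2.36 and 2.24 in WT and 3.14 and 3.04 in KI (+0.79 ± 0.12, limma adjusted p = 0.206). Irx5 was at -1.81 and -1.75 against -1.03 and -1.09 (+0.72 ± 0.13, adjusted p = 0.262), and Irx1 at 0.70 and 0.19 against 1.30 and 1.25 (+0.83 ± 0.19). All 3 had positive differences at birth too, of +0.57, +0.66 and +0.43. Hey2, a Notch target of the compact ventricular wall, behaved otherwise: it was at -2.61 and -2.72 in WT and -1.66 and -1.31 in KI (+1.19 ± 0.19, adjusted p = 0.231), while at birth it was far brighter and stood at -0.26. Its 1 week minus birth was -4.02 ± 0.19 in WT and -2.58 ± 0.19 in KI, and the difference of these did not pass (age by genotype +1.44, adjusted p = 0.624). In the whole list of 39 cardiac transcription factors, 10 lay above (25.6%) and 6 below (15.4%).

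Among the 25 function lists, cell cycle genes had the highest share of non-overlapping members. Of 98 tested, 94 were positive, 78 had both KI arrays above both WT arrays (79.6%, against 19.8% of all genes) and 0 had both below (18.0% of all genes). No member was called (smallest limma adjusted p = 0.631, 15 at an unadjusted p under 0.05), the median difference was +0.49 and the range was from -0.13 (Cdk6) to +0.97 (Gtse1). The list median of levels was 0.95 on A and 0.68 on D in WT, and 1.07 on B and 1.41 on C in KI, so that A and B differed by less than A and D. At birth it was 1.20 and 1.09 in WT and 1.22 and 0.51 in KI, with 1 KI array low. Array C minus array A gave a median of +0.52 with 91 of 98 positive, against +0.01 over all genes, whereas the scanner-file samples gave +0.02. For the 78 non-overlapping members C had to lie above A, so the count of 91 is no separate check. Without array D the list median was +0.34, and without array A +0.62.

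**Figure D4:**
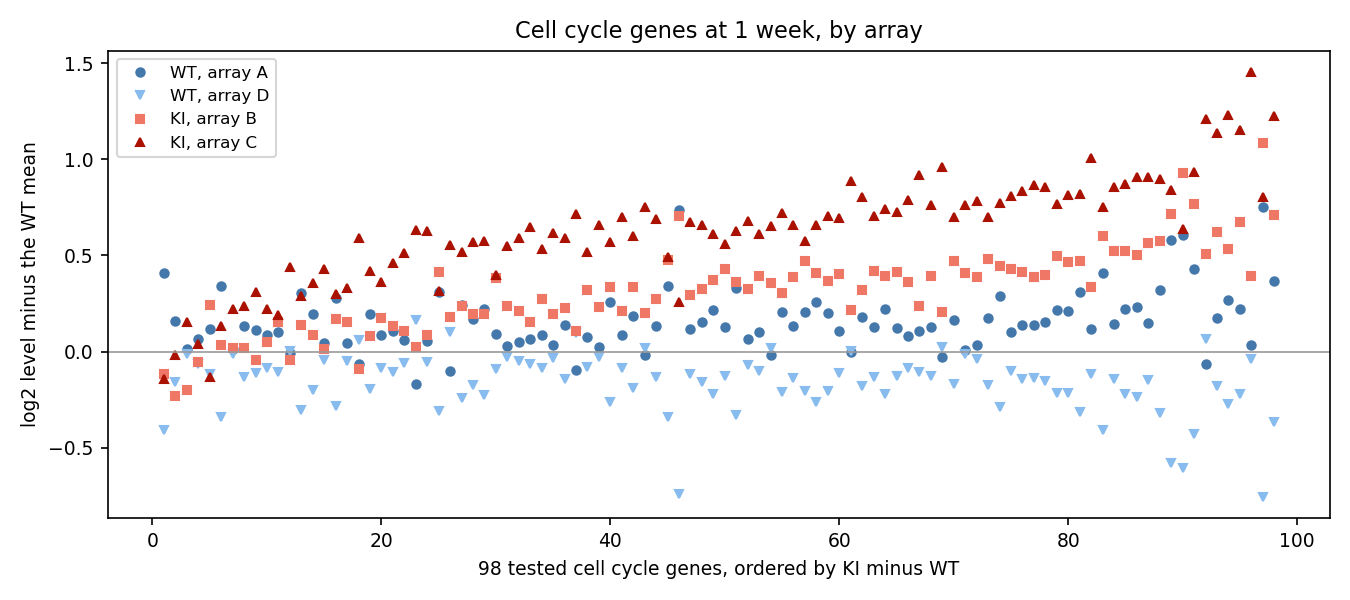
Log2 level of the 98 tested cell cycle genes on each 1-week array minus the mean of both WT arrays, in the order of KI minus WT. Array C (dark red) lies highest for most genes and array D (light blue) lowest, with B (light red) above A (dark blue) in most.

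Kif20a, a kinesin of cytokinesis, was at 1.38 and 1.03 in WT and 1.83 and 2.34 in KI (+0.88 ± 0.28, adjusted p = 0.640). Ube2c, which loads ubiquitin for the anaphase-promoting complex, was at 2.32 and 1.86 against 2.59 and 2.99 (+0.70 ± 0.22, adjusted p = 0.631). Cdk2, the kinase of S-phase entry, was at -0.22 and -0.49 against 0.04 and 0.51 (+0.63 ± 0.21, adjusted p = 0.684). In each of these the groups did not overlap, and in each array D was the lowest. The tubulin regulator Stmn1 (+0.52 ± 0.19), cyclin A2, Ccna2 (+0.62 ± 0.29), and the mitotic kinase Cdk1 (+0.78 ± 0.39) had the same order of groups. The proliferation antigen Mki67 was at 3.62 and 3.49 in WT and 3.71 and 4.20 in KI (+0.40 ± 0.31).

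Of 18 CDK inhibitors and pocket proteins, which hold the cycle back, 8 lay above (44.4%) and 3 below (16.7%), and none was called. The median was +0.21, and +0.12 without array D. Cdkn2d was at 3.10 and 2.94 in WT and 3.45 and 3.68 in KI (+0.55 ± 0.17, adjusted p = 0.631), Cdkn2c at +0.56 ± 0.24 and Gadd45a at +0.47 ± 0.13. Cdkn1a, a p53 target, overlapped (+0.09 ± 0.44).

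Promoters of 2 of the cell cycle genes are shown since the members lay together. Windows were as above, the RefSeq table of GRCm38.p6 listing 1 start for each: Ube2c at chr2:164769679-164769928, plus strand, with 6 CCAAT boxes (CCAAT or ATTGG, one pair overlapping) and the cell cycle homology region (CHR; TTTGAA, here as TTCAAA, from base -29) in capitals, and Cdk2 at chr10:128705052-128705301, minus strand, with 1 CCAAT box and 2 E2F-type sites (GCGGGAA) in capitals.
Ube2c promoter: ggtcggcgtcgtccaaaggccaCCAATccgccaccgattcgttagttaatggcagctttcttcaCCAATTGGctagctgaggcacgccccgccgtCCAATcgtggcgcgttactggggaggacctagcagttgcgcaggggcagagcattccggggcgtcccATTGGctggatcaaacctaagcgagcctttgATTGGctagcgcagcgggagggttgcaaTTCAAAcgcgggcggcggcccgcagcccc
Cdk2 promoter: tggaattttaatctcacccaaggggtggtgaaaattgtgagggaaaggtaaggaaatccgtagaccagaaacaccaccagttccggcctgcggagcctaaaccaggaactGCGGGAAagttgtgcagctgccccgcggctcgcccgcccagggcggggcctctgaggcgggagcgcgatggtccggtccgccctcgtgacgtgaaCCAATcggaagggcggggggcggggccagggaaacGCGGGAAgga
The table held 87 windows for 78 of the tested cell cycle genes. CCAAT boxes were in 72.4% of these windows against 33.8% of all 32851, CHR elements in 25.3% against 16.0%, and E2F-type sites (GCGGGAA or TTCCCGC) in 11.5% against 3.82%; MCAT elements were in 10.3% against 12.6%. These shares describe the list's promoters and were not set against the measured differences.

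Fatty acid oxidation genes, which the heart takes into use after birth, lay the other way on balance. Of 49 tested, 15 were positive, 1 lay above (2.04%) and 16 below (32.7%), with a median of -0.11 and no called member. Without array A the median was +0.03. Pdk4, which blocks the entry of pyruvate into the mitochondrial cycle, was at 4.84 and 4.91 in WT and 4.22 and 3.76 in KI (-0.88 ± 0.22, limma adjusted p = 0.474), against +0.20 at birth. The uncoupling proteins Ucp3 (1.92 and 1.64 in WT, 1.37 and 1.08 in KI) and Ucp2 (1.12 and 1.12 against 0.72 and 0.51) had non-overlapping groups. Cpt1b, the gate of fatty acids into mitochondria, overlapped (-0.03 ± 0.16).

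Of 79 respiratory chain and citric acid cycle genes, 3 lay above (3.80%) and 16 below (20.3%), although the median was +0.04. Cox8b, the heart form of a cytochrome oxidase subunit, was at 7.85 and 7.87 in WT and 7.45 on both KI arrays (-0.41 ± 0.11, adjusted p = 0.551). Among 38 glycolysis and glycogen genes 9 lay above and 3 below (median +0.14), with Pygl, the liver form of glycogen phosphorylase, at 1.88 and 1.74 in WT and 2.36 on both KI arrays (+0.55 ± 0.13, adjusted p = 0.452). Both medians turned with array D: without it they were -0.13 for the respiratory chain and -0.07 for glycolysis, and array C minus array A gave -0.12 and -0.08.

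Extracellular matrix genes were split. Of 71 tested, 10 lay above (14.1%) and 22 below (31.0%), and the median was -0.07 (-0.17 without array A, -0.03 without array D). Fbn2, the fibrillin of developing tissue, was at 2.32 and 2.58 in WT and 3.20 and 3.50 in KI (+0.90 ± 0.20, limma adjusted p = 0.426), and Thbs4, thrombospondin 4, at 0.59 and 0.54 against 1.42 and 1.06 (+0.67 ± 0.19). Fibrosis genes Postn (+0.09 ± 0.22) and Col1a1 (+0.04 ± 0.20) overlapped. Spp1, osteopontin, had the largest difference of the panel, at -0.46 and -1.28 in WT and -4.01 and -4.45 in KI (-3.36 ± 0.63, adjusted p = 0.304). Its difference at birth was -3.29, and it was above background on all 4 arrays at 1 week.

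Of 33 genes of endoplasmic reticulum chaperones, 16 lay above (48.5%) and 6 below (18.2%), with a median of +0.16. That median was +0.08 without array D, +0.05 on array C minus array A and -0.06 with the scanner-file samples. Manf was at 1.66 and 1.37 in WT and 2.06 and 2.23 in KI (+0.63 ± 0.18), and Pdia4 at 0.24 and 0.41 against 0.70 and 1.32 (+0.69 ± 0.22); neither passed. In the integrated stress list, where 7 of 37 lay above and 5 below, the mitochondrial folate enzyme Mthfd2 was at -1.94 and -2.21 in WT and -1.36 and -0.91 in KI (+0.94 ± 0.19, adjusted p = 0.364). The quinone reductase Nqo1, a target of the antioxidant response, was at -0.04 and -0.59 against 0.47 and 0.85 (+0.98 ± 0.24, adjusted p = 0.474). Of 33 antioxidant genes tested, 6 lay above (18.2%) and 4 below (12.1%), with a median of +0.06. Of the growth factors, neuregulin 1, Nrg1, was at -0.96 and -0.66 in WT and 0.12 and -0.10 in KI (+0.82 ± 0.15, adjusted p = 0.293), with +1.00 at birth. The neuregulin and growth factor list lay the other way on balance. Of 39 tested, 15 were positive, 6 lay above (15.4%) and 10 below (25.6%). Its median was -0.10, and +0.03 without array D.

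**Figure D5:**
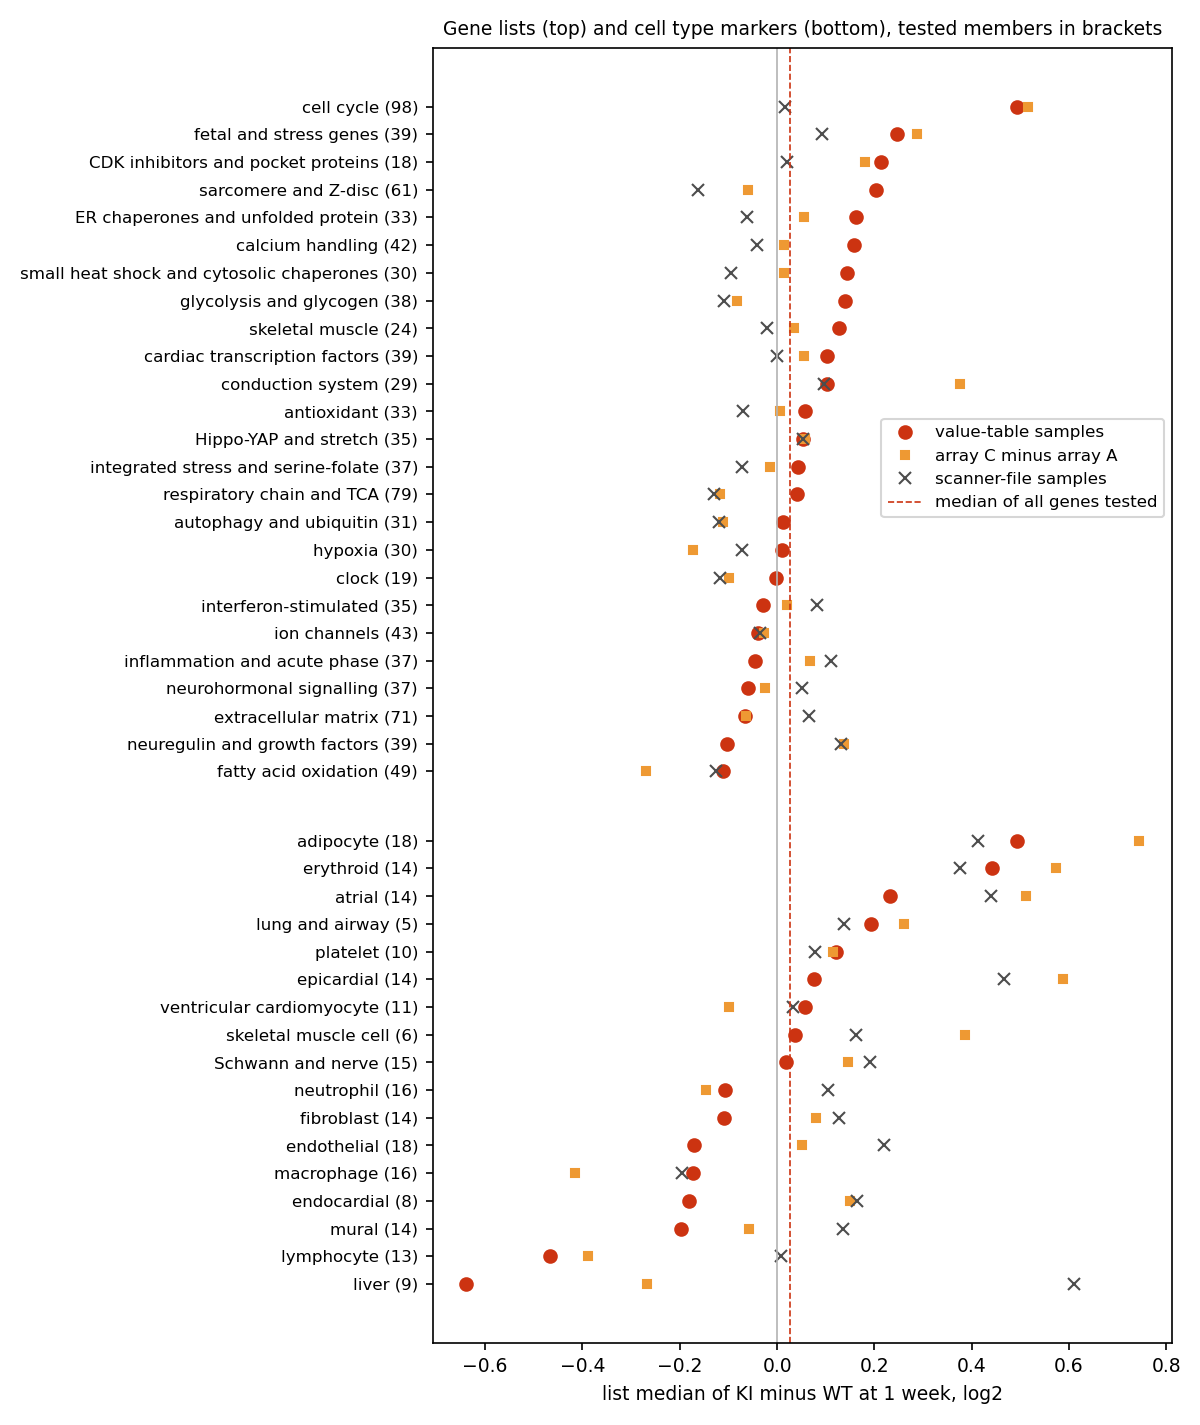
Median of KI minus WT at 1 week (log2) over the tested members of each gene list and each cell type marker list, with the value-table samples (red circles), on array C minus array A (orange squares) and with the scanner-file samples (crosses); the dashed line is the median of all genes, +0.03. With the value-table samples, cell cycle genes have the highest median of the gene lists (+0.49). Liver (-0.64) and lymphocyte markers (-0.47) then have the lowest of the marker lists. Without array D the liver and lymphocyte medians are -0.19 and -0.62, and with normexp background -0.24 and -0.33.

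Markers of the cell types of the ventricle and of other tissues are given beside these groups. No marker was called, apart from Myh7 in the ventricular list. Of 13 lymphocyte markers, 0 were positive and 12 had both KI arrays below both WT arrays (92.3%), with a median of -0.47 at 1 week and +0.35 at birth. Their summed linear level was 4.22 and 4.29 in WT and 3.07 and 3.22 in KI. Ms4a1, which encodes CD20, was at -2.12 and -2.20 in WT and -3.39 and -3.29 in KI (-1.18 ± 0.26), and the cytokine receptor Il7r at -3.02 and -2.89 against -3.68 and -4.26 (-1.02 ± 0.24).

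Endothelial (1 of 18 positive, median -0.17), mural (3 of 14, -0.20) and endocardial markers (3 of 8, -0.18) were mostly below 0. So were fibroblast (5 of 14, -0.11) and macrophage markers (4 of 16, -0.17). Both KI arrays lay below both WT arrays for 6 endothelial, 4 mural, 2 endocardial, 3 fibroblast and 5 macrophage markers. These shares ran from 21.4% (fibroblast) to 33.3% (endothelial), against 18.0% of all genes. No endothelial or mural marker had both KI arrays above both WT arrays, against 19.8% of all genes. Of the rest, 1 endocardial, 1 fibroblast and 2 macrophage markers did. On array C minus array A, the endothelial, endocardial and fibroblast medians were above 0 (+0.05, +0.15 and +0.08). Without array A the macrophage median was -0.04. Erythroid markers stood at +0.44 (+0.18 without array A), with summed levels of 604 and 890 in WT and 738 and 852 in KI. The adipocyte median of +0.49 was -0.35 without array A; of 18 fat markers, 4 lay above and 3 below, and Ucp1 overlapped, at -6.28 and 2.40 in WT and 0.52 and 1.23 in KI. Of 9 liver markers, 7 lay below, with a median of -0.64 (-0.19 without array D, -0.24 with normexp background). Of 16 liver markers on the array, 8 were not well above background on any 1-week array. Albumin, Alb, was at -4.47 and -1.88 in WT and not well above background in KI. The part of these cell types in the gene list values was not tested.

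Other genes with small p-values did not pass either. Gdnf, a growth factor of neurons, was at -3.92 and -3.80 in WT and -2.09 and -2.36 in KI (+1.63 ± 0.23, limma adjusted p = 0.165), with +1.19 at birth. The carboxypeptidase Cpa3 was at -1.34 and -1.39 in WT and -0.39 and -0.08 in KI (+1.13 ± 0.16, adjusted p = 0.165), and the chymase Cma2 at -1.03 and -0.93 against -0.13 and -0.01 (+0.91 ± 0.14, adjusted p = 0.200). Dnajc5b, a cysteine-string co-chaperone, was at -2.86 and -2.85 in WT and -3.97 and -3.81 in KI (-1.04 ± 0.12) and came nearest to the threshold of the uncalled genes named here (adjusted p = 0.0793), with -0.15 at birth.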

How the data were processed

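RNA of mouse ventricle was hybridised to single-colour arrays (Cy3) on 1 slide. The deposited value table and scanner files hold processed intensity on a linear scale, background-corrected within each array by Feature Extraction (11.0.1.1 per the file headers, 9.1 per the submitters' processing notes) with no scaling between arrays; flags (other) are 0 or 1 per the file headers, which name build mm9. Each column was matched to a scanner file at a relative tolerance of 0.0001.

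Log2 signals were set relative to each array's 75th percentile over its 56605 probes, controls left out. The brightest probe stood for each RefSeq symbol (32988 probes, 22909 genes; 23602 probes were unnamed), and a gene was tested if well above background on both arrays of a group. A model with a mean for each of 4 groups was run on the 8 arrays in limma 3.58.1 (R 4.3.3; 4 residual degrees of freedom), two-sided, with Benjamini-Hochberg adjustment over all genes tested; ± is the limma SE. The fit was tested on simulated data. The number of arrays limits the precision.

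The comparison, the members and the 25 function and 17 marker lists were chosen with earlier results of these data known. Genes named were Tnnt2, all called genes, the smallest p up to 14 in each direction among non-overlapping genes, a panel, up to 4 members of each list, and the 10 largest neighbours of Tnnt2; Cdk6, Gtse1 and Ucp1 were named after their values were seen. Not every gene under this rule is printed. Alternatives changed background, scaling, filter, probe rule, arrays and model. The files lack the mean spot signal, so normexp used the median. RefSeq coordinates are GRCm38.p6 and serve only for promoters and gene order.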

Additional observations from a re-analysis of the deposited data

Results flagged for a closer look

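The genotype difference of Myh7 at 1 week differed from that at birth by +2.60 (log2; limma age by genotype, adjusted p = 0.0222), and this gene was the only one of 15744 to pass that test. The 2 KI arrays at 1 week lay at 7.12 and 7.28 against 4.61 and 4.54 in WT, and the 4 birth arrays between 9.44 and 9.52. Over 22 alternatives the difference lay between +2.41 and +2.79, apart from the scanner-file samples (+0.02), and it passed in 11.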

How the results depend on the processing

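The count of 8 called genes at 1 week moved with most choices. It was 1 with the scanner-file samples, 4 with normexp background, 19 without scaling between arrays (16 higher, 3 lower), 3 with no filter on dim probes, 4 with genes above background on all 1-week arrays, 3 with the mean of all probes, 5 with every probe on its own, 4 with array weights and 0 with the 1-week arrays only. That fit had 912 genes at an unadjusted p under 0.05. Leaving out 1 array gave 2 to 22 calls: 22 without A, 16 without D, 12 without B and 2 without C. It was 7 with quantile normalization (5 higher, 2 lower), 10 with median scaling (7 higher, 3 lower) and, added after seeing the data, 7 with the percentile over all spots and 7 with only arrays A and C. The replicate block gave 10 calls, 6 of them among the 8; the labels do not say that replicate numbers pair the samples, and the correlation of paired deviations was 0.165 at 1 week and 0.285 at birth.

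The 1 call of age by genotype was 0 with the scanner-file samples, quantile normalization, no filter, every probe and the replicate block. It was 2 with median scaling, no scaling and genes above background on all 1-week arrays. The count also moved when an array was left out and with only arrays A and C, where Myh7 did not pass. With the scanner-file samples each genotype held 1 array of each value-table group, so that a difference between the value-table groups cancelled. Chil1 was then at -0.17 ± 0.84, Cntn2 at -0.070 ± 0.58 and Rab7b at +0.12 ± 0.60. Casq1 was at -0.23, Bhmt at +0.11 and Kcnc2 at +0.22. All 6 had the other sign, and none passed. Which record names arrays B and D rightly was not tested. The birth arrays had the same genotype in both records. There, Ctse was at -6.84 and -7.00 in WT and -2.99 and -2.44 in KI (B -3.32, D -6.65 at 1 week). Cntn2 was at -2.51 and -2.24 against -0.65 and -0.80 (B -0.87, D -2.41). Chil1 was at -4.71 and -4.56 against -3.32 and -3.49 (B -3.83, D -6.16). Rab7b was at 0.25 and 0.16 against -1.53 and -1.69 (B 0.27, D 1.90). These neighbours of Tnnt2 were called with the value-table samples, so B and D had to differ. Of the 8, Myh7 kept its call in 21 of 23 alternatives (adjusted p from 2.54e-05 to 0.996; lost with the scanner-file samples and with the 1-week arrays only), Chil1 in 16 of 22, Bhmt in 15 of 22, Ctse in 11 of 22, Casq1 in 9 of 23, Kcnc2 in 8 of 22, Cntn2 in 6 of 23 and Rab7b in 5 of 23. Median scaling and no scaling moved the median of all genes to +0.11 and +0.27; relative to it the cell cycle median stayed between +0.44 and +0.47 over 6 scalings and the lymphocyte median between -0.49 and -0.34. With median scaling the extracellular matrix and ion channel medians were +0.02 and +0.05, above 0 but still below the median of all genes.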
